A study of Mus musculus with 9 samples.

Results

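The potassium channel genes were taken as all genes whose mouse symbol begins with Kcn, looked up by Ensembl identifier. Symbols of antisense or opposite-strand transcripts were left out, 5 in all, among them Kcnq1ot1, which runs antisense to Kcnq1. The rule gave 94 genes of the 51912 in the deposited tables. They were read in 9 RNA-seq libraries, S1001 to S1009, of sorted pyramidal neurons. The hippocampi came from male C57BL/6 mice, whose age the labels do not state. All mice carried Cre recombinase under the Camk2a promoter, which is active mainly in forebrain excitatory neurons, and received rAAV5-DIO-mCherry, a serotype 5 adeno-associated vector whose red fluorescent protein is switched on by Cre. Vector amounts of 2.88e+08, 2.88e+09 and 2.88e+10 vector genomes were used, the lowest serving as the control, and fluorescent cells were sorted 3 weeks after injection. The labels describe no group without vector. The labels of the single libraries do not say which amount each received. The deposited columns carry the letter H for S1001 to S1003, M for S1004 to S1006 and L for S1007 to S1009. The letters are used below only as names and are not read as amounts of vector, so values are set side by side and nothing was tested between them.

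Potassium channels let potassium ions cross the membrane down their gradient, which sets the resting potential and ends the action potential. Voltage-gated channels are tetramers of pore subunits, some joined by electrically silent subunits that alter their gating, and by cytoplasmic or membrane-bound auxiliary proteins. Inward rectifiers and two-pore-domain leak channels hold the membrane near rest, and calcium-activated channels couple spiking to the calcium that enters. Pyramidal neurons of the hippocampus are known for A-type currents through Kv4 channels with their KChIP partners, for the M-current through Kv7 channels, and for inward rectifiers opened by G proteins. Microglia, astrocytes, oligodendrocytes and interneurons each use other members of the family.

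The libraries differed in ways that bear on every value below. Total counts ran from 12136830 to 19151596, so that 3 reads, the limit that a count of 0 allows, were worth 0.158 to 0.246 CPM (counts scaled to the library total), counting error only. The 3 libraries headed H lay much closer to each other than those of the other letters. Chi-square over genes, divided by its degrees of freedom, was 2.67 to 5.14 within H, 24.3 to 33.6 within M and 27.2 to 38.9 within L. No pair agreed within sampling noise, and counts are also given below without S1002 and S1003 where that moved them by over 1.5 times. As a check of the labelled cell type, 8 of 8 pyramidal markers passed a mean of 1 CPM, with summed levels of 4053 to 4528 CPM in H, 2163 to 2586 in M and 4709 to 6747 in L. Markers of cells other than neurons were present too. The 12 microglial markers, all detected in every library, summed to 16963 to 18407 CPM in H, 4747 to 6076 in M and 27.4 to 143.9 in L. The 7 oligodendrocyte markers summed to 588 to 612 CPM in H, 93.3 to 154.5 in M and 30.9 to 60.1 in L, again with none at 0. Plasma cell markers summed to 3214 to 3343 CPM in H and to at most 7.21 in M and L, where Mzb1 was at 0 in 5 libraries. By the rule for letters given below, 4 of these 5 markers lay higher in H than in M, against 6.54% of all genes. The other, Tnfrsf17, measured 3.11, 2.69 and 2.29 CPM in H and 6.21, 3.24 and 3.13 in M. In such bulk samples fewer cells of a type and less RNA per cell cannot be told apart.

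Of the 94 genes, 66 had a mean of at least 1 CPM and 28 did not. Levels were compared between genes per length, as deposited FPKM (a count scaled to gene length and library total). The 4 Kv channel interacting proteins together measured a median of 77.1 FPKM over the 9 libraries, the two-pore-domain leak channels 70.2, the 3 Kv beta subunits 65.4 and the inward rectifiers 57.4. Kcnk1, encoding the leak channel TWIK-1, had the highest median, 42.8 FPKM, with a range of 39.5 to 56.7. It was followed by Kcnab1, a cytoplasmic beta subunit that speeds inactivation of Kv1 channels, at 31.9 FPKM (23.1 to 49.6). Kcnj3, a subunit of the G protein-gated inward rectifier, stood at 31.3 FPKM (24.5 to 45.7). Kcnd2, the Kv4 pore subunit of the dendritic A-type current, stood at 28.8 FPKM (19.4 to 34.7). Kcnk1 was above these 3 genes in all 9 libraries, whereas the ranges of Kcnab1, Kcnj3 and Kcnd2 overlapped.

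**Figure D1:**
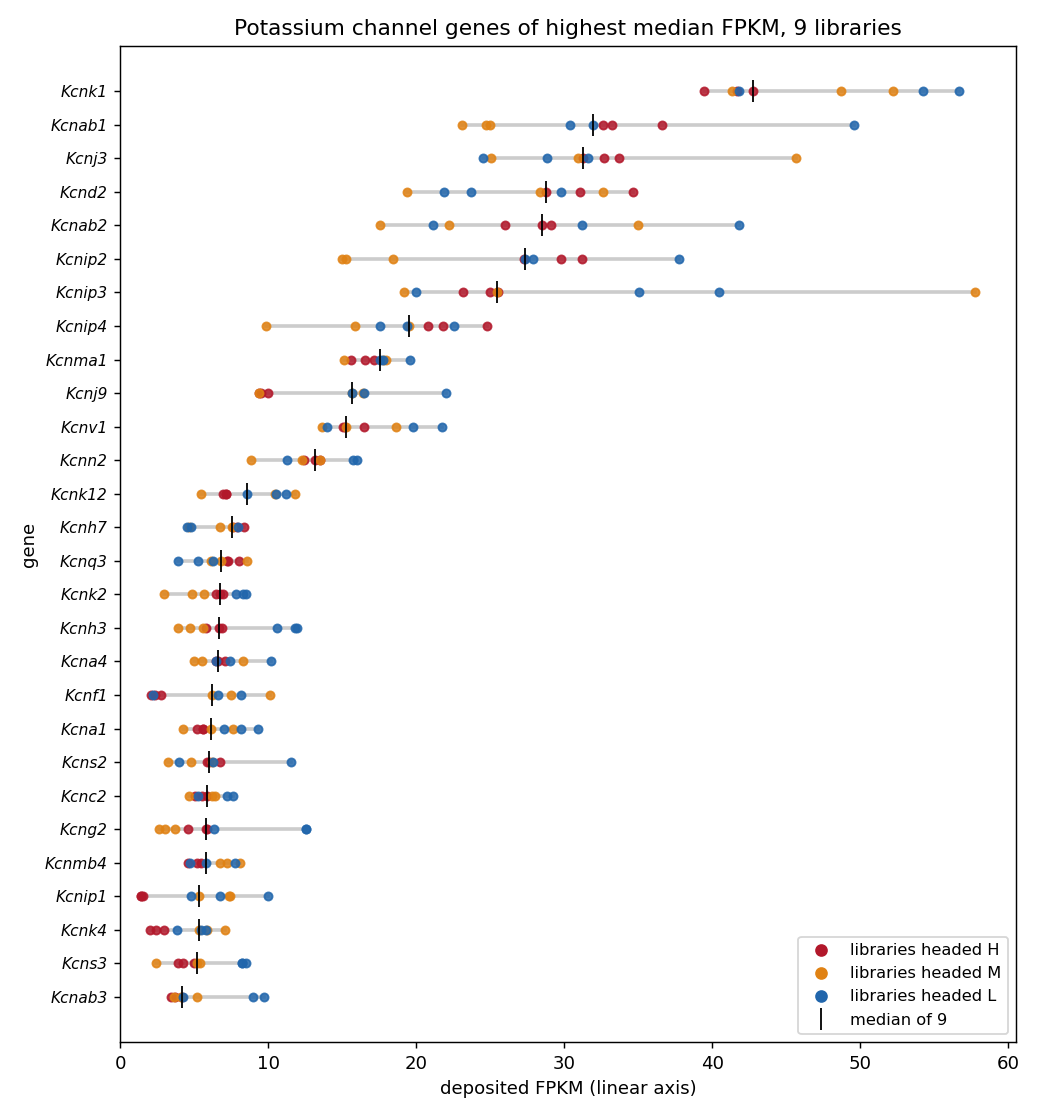
Deposited FPKM (linear axis) of 28 of the 30 potassium channel genes of highest median, one point per library coloured by header letter, with the median of 9 as a tick and the range as a grey bar. Kcnk1 leads at 42.8 FPKM, and of these 28 Kcnip3 has the widest range, from 19.2 to 57.7 FPKM.

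Of the 17 auxiliary and regulatory genes 10 passed the minimum, and their levels differed widely. Kcnab2, another Kv beta subunit, measured a median of 28.5 FPKM. Kcnip2, Kcnip3 and Kcnip4, calcium-binding partners of Kv4 channels, had medians of 27.4, 25.4 and 19.5 FPKM. At the lower end were Kcnip1 at 5.34, Kcnab3 at 4.17 and Kcne3 at 1.22 FPKM. Among pore subunits that open with calcium, Kcnma1, the BK channel, had a median of 17.6 FPKM within a narrow range of 15.1 to 19.6, and Kcnn2, the SK2 channel of the afterhyperpolarisation, had 13.2 FPKM. Kcnq3, a subunit of M-channels, measured 6.79 FPKM. The silent subunit Kcnv1 reached 15.3 FPKM, above its silent relatives Kcnf1 at 6.21, Kcns2 at 5.97 and Kcng2 at 5.82. Among Kv1 genes Kcna4, the fast-inactivating member, had the highest median, 6.58 FPKM, close to Kcna1 at 6.14, and the highest Kv3 gene was Kcnc2 at 5.87 FPKM. Kcnh7, an ERG channel, had 7.57 FPKM, and Kcnmb4, the neuronal BK beta subunit, had 5.79 FPKM. The highest sodium-activated gene, Kcnt2, measured 3.12 FPKM.

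Variation among libraries was measured on the log2(CPM + 1) scale by taking the second lowest library from the second highest one, and 2-fold was the mark. Of the 66 genes, 23 (34.8%) reached it, against 26.4% of all 14787 genes averaging 1 CPM or more, and the median spread was 0.73 against 0.66. The share depended on level. Of the 17 genes at 50 CPM or more, 1 reached 2-fold, which was Kcnip2, where all genes of that level gave 13.8%. Kcnip2 was lost without S1003, S1004, S1006 or S1007, without S1002 and S1003 together, and with a pseudocount of 5 CPM. Pan-neuronal scaling added Kcnab2, Kcnd2 and Kcnh7 at this level, library totals added Kcnip3, and the full range added Kcnab1, Kcnab2, Kcnip3, Kcnip4, Kcnj9 and Kcnq3. Between 10 and 50 CPM it was 9 of 26, with 21.9% for all genes, and under 10 CPM it was 13 of 23, with 41.6%. Of the 66 genes, 7 had a median below 1 CPM in the libraries of at least 1 letter and passed the minimum through the others, so these counts describe the set and support nothing more. The largest spreads were 3.45 for Kcnk13, 3.0 for Kcnk6, 2.28 for both Kcnip1 and Kcnn4, and 2.25 for Kcnj10. Without S1002 and S1003, 14 genes reached 2-fold, and Kcnip1 and Kcnn4 were no longer among them. S1001 was then the only H library, and the spread leaves out its value where it is the highest or lowest. That was the case for Kcnip1. Kcnn4 was lost because its mean then fell below 1 CPM, and it left the counts by letter too. These losses therefore say nothing about how Kcnip1 and Kcnn4 differed between letters. With a pseudocount of 5 CPM 9 genes reached 2-fold, and with a minimum of 10 CPM 10 did.

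**Figure D2:**
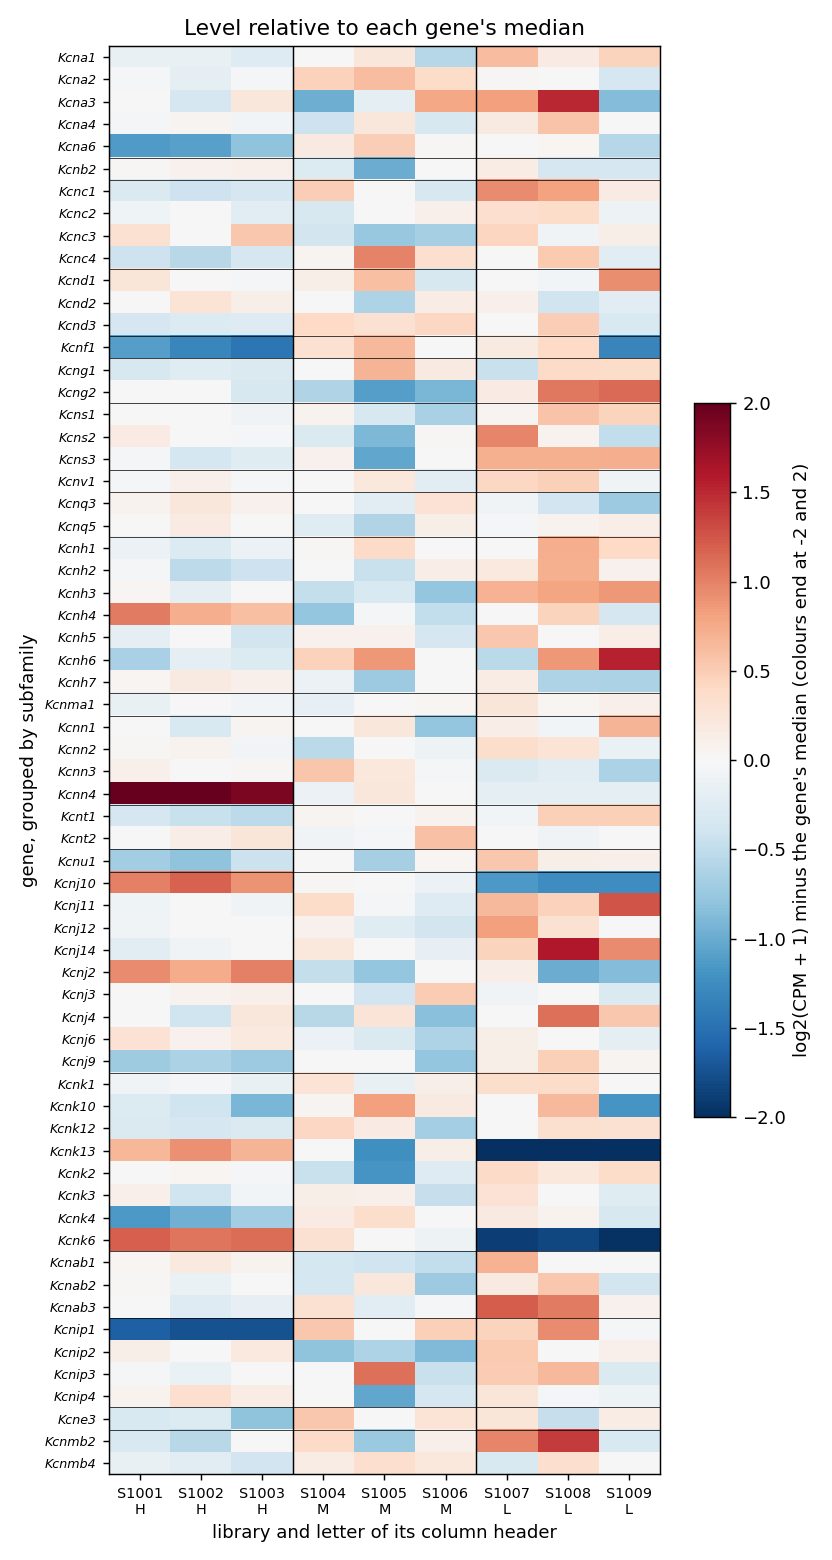
Level of 64 of the 66 potassium channel genes averaging 1 CPM or more, in each library, as log2(CPM + 1) minus the gene's median over the 9 libraries, grouped by subfamily. Most rows are pale, while Kcnk13, Kcnk6, Kcnn4, Kcnj10 and Kcnj2 are high in S1001 to S1003 and Kcnip1, Kcnf1, Kcna6 and Kcnk4 are low there.

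The channels that shape firing in pyramidal cells were read as a list. Its 19 genes, chosen with earlier results of these data known, all passed the minimum. Of them 0 had a 2-fold spread, against 26.4% of all genes. Among all genes the share was 13.8% at 50 CPM or more and 21.9% between 10 and 50 CPM, the levels of these 19. On pan-neuronal scaling Kcnab2, Kcnd2 and Kcnh7 had a 2-fold spread, and by the full range Kcna1, Kcnab2, Kcnip4, Kcnj9, Kcnq3 and Kcnt1 did. The summed level of the list lay between 1381 and 1722 CPM. Kcnq3 ran from 58.5 CPM in S1009 to 119 in S1006, with S1008 and S1009 at the low end. The BK gene Kcnma1 ran from 106 CPM in S1004 to 140.4 in S1007. None of the 19 met the rule for a difference between letters given below, except that Kcnh7 lay higher in H than in L on pan-neuronal scaling and Kcnj9 lower in H than in L without S1009. Kcnd2 measured 147, 178 and 159.8 CPM in S1001 to S1003, 147, 95.6 and 164 in S1004 to S1006, and 159, 112 and 128 in S1007 to S1009. S1005 was the lowest library for Kcnd2 and, as given below, for Kcnip4. Kcnip2 was the exception at this level, at 103, 94.5 and 108 CPM in H, 53.4, 61.3 and 50.8 in M, and 136, 94.4 and 101 in L. All 3 M libraries were below all others for Kcnip2. The summed pyramidal markers were lowest in the same 3 libraries, and their part in the Kcnip2 values was not tested.

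Set side by side by letter, a gene was counted when the 3 values of one letter did not overlap those of the other and the medians differed by at least 1 on the log2(CPM + 1) scale. Of the 66 genes, 5 lay higher in H than in L, namely Kcnk13, Kcnk6, Kcnn4, Kcnj10 and Kcnj2, against 13.2% of all genes. The first 4 of these had an L median below 1 CPM and passed the minimum through the other letters. In the other direction 7 lay lower in H than in L, namely Kcnip1, Kcna6, Kcnc1, Kcng2, Kcnk4, Kcnab3 and Kcnj14, against 2.00% of all genes. M was above L in 3 genes (Kcnk13, Kcnk6 and Kcnj10), with 9.35% of all genes, and below L in 2 (Kcng2 and Kcnh3), with 2.31%. H was above M in 5 genes (Kcnj10, Kcnj2, Kcnk6, Kcnn4 and Kcnh4), with 6.54%, and below M in 4 (Kcna6, Kcnf1, Kcnip1 and Kcnk4), with 2.70%. The 3 pairs of letters share libraries.

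The median difference of H from L over the 66 genes was -0.30, with -0.03 over all genes. The sign of the channel median depended on the scaling, but on each scaling it stayed below the median of all genes. It was -0.275 with -0.003 over all genes on library totals, and -0.272 with 0.009 on DESeq2 size factors. Libraries were also scaled to the counts of 20 pan-neuronal genes. The median of all genes in H relative to L then shifted by 0.52, to 0.49, and the median of the channel genes became 0.20. Summed pan-neuronal levels were 10589.6 to 10623 CPM in H, 12795 to 14977 in M and 15195 to 16566.5 in L. On that scaling 8 genes lay higher in H than in L and 1, Kcnip1, lay lower. There 9 lay higher in H than in M and 2, Kcnip1 and Kcnf1, lower. The median of all genes in H relative to M shifted by 0.40 there. The share of all genes was not counted on that scaling, so these counts have no background. The count of genes lower in H than in L also moved with single libraries, to 11 without S1009, 3 without S1008 and 4 without S1007. Of the 7 genes named above, 1, Kcnip1, was still counted without S1008, where Kcnj11 and Kcnu1 came in. Without S1007, 3 were, namely Kcnip1, Kcng2 and Kcnj14, and without S1009 all but Kcng2 were. Kcna6 and Kcnk4 were also lost without S1001 and without S1002, and Kcnj14 without S1001. The count of genes lower in M than in L became 6 without S1004, 4 without S1006, 4 without S1007 and 7 without S1009, and H was above M in 3 genes without S1001 and in 3 without S1002 and S1003.

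**Figure D3:**
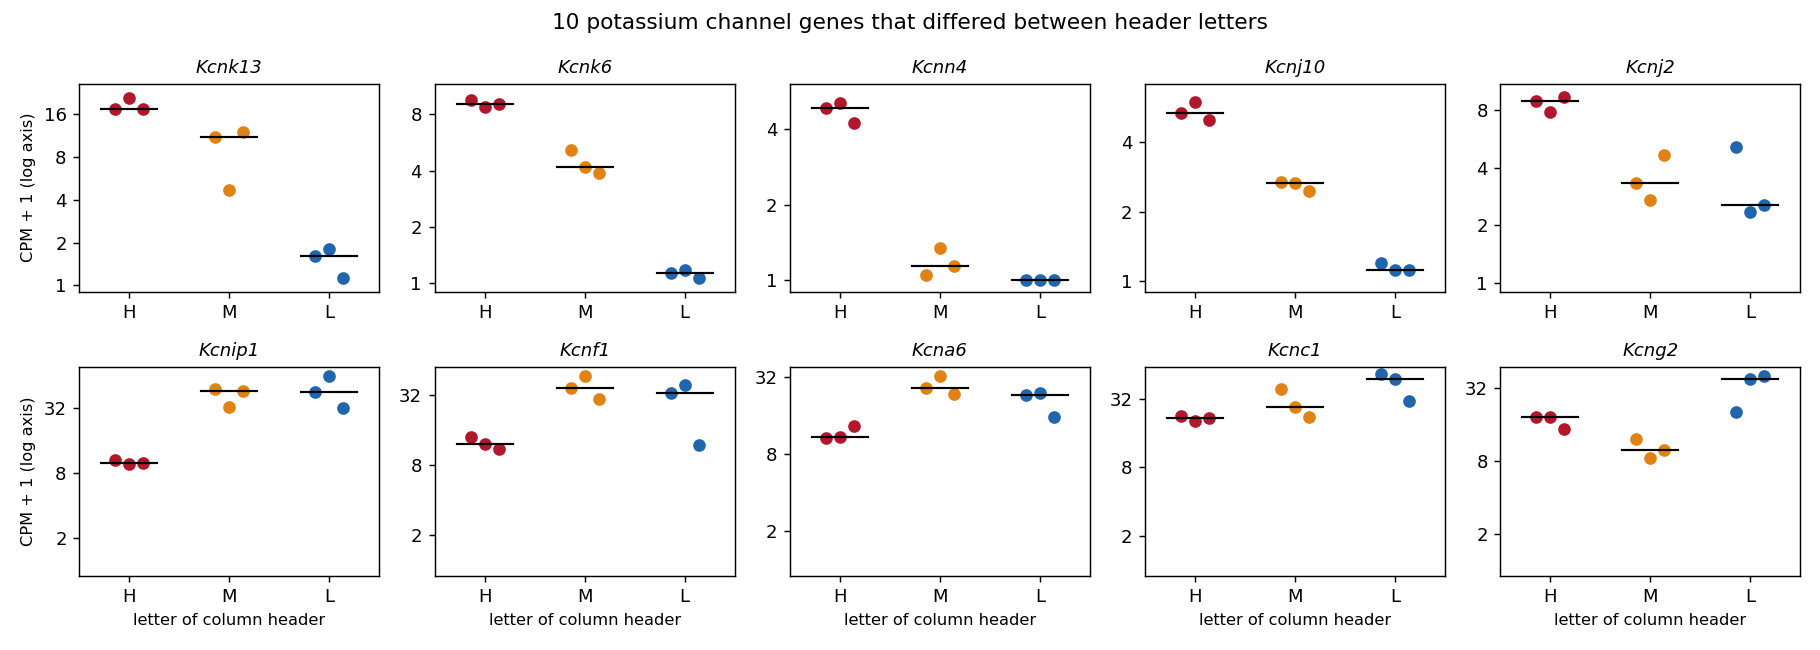
CPM + 1 (log axis) of 10 potassium channel genes in each library, in columns by the letter of the column header, with the median of each 3 libraries as a bar. The upper row holds the 5 genes higher in H than in L, and in the lower row Kcnf1 and Kcna6 have S1009 nearer to H than the other L libraries.

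Genes known from microglia and other immune cells included Kcnk13 and Kcnk6, the pair with the largest spreads. Of a list of 5, all 5 had a 2-fold spread, against 26.4% of all genes and 41.6% of those under 10 CPM. Of the 5, 4 lay higher in H than in L, against 13.2% of all genes, and 0 lower. Kcnk13, Kcnk6 and Kcnn4 passed the minimum through the letters where they were high, so these counts only describe the list. Kcnk13 (mm10 chr12:99964499-100062682, plus strand) encodes THIK-1, a leak channel that sets the resting potential of microglia. It measured 16.5, 19.7 and 16.5 CPM in S1001 to S1003, 10.0, 3.72 and 11.0 in S1004 to S1006, and 0.606, 0.792 and 0.123 in S1007 to S1009. The letters did not overlap at any step, and the H median was 27.3 times the L median, where the L values stand for 9, 13 and 2 counts. On the log2(CPM + 1) scale, where the added 1 CPM shrinks differences at low levels, H and L differed by 3.45. Kcnk6 (chr7:29221926-29232515, minus strand) encodes TWIK-2, a leak channel of macrophages and vessels. It measured 8.52, 7.76 and 8.08 CPM in H, 4.16, 3.17 and 2.91 in M, and 0.135, 0.183 and 0.0616 in L, where the values stand for 2, 3 and 1 counts. Again no 2 letters overlapped, with differences of 3.0 between H and L and 1.12 between H and M on the log2(CPM + 1) scale.

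Kcnn4 (chr7:24370263-24386690, plus strand) encodes KCa3.1, a calcium-activated channel of lymphocytes and microglia. It measured 3.85, 4.07 and 3.20 CPM in H, stood on 1, 5 and 2 counts in M and on 0 counts in all 3 L libraries. Against 3 counts in an L library, the H median was at least 19.1-fold higher. Its mean fell below 1 CPM without S1001, without S1002, or without S1002 and S1003 together, and it was then not counted. Kcnj2 (chr11:111066164-111076821, plus strand) encodes Kir2.1, a strong inward rectifier of microglia, vessels, muscle and some neurons. It measured 7.95, 6.76 and 8.31 CPM in H, 2.32, 1.72 and 3.63 in M, and 4.10, 1.34 and 1.54 in L. H stood apart at 5.16 times the L median, whereas M and L overlapped. Kcna3, the Kv1.3 channel of T cells and activated microglia, did not follow the other 4. It measured 5.00, 3.76 and 6.02 CPM in H, 2.05, 4.28 and 9.23 in M, and 9.55, 16.1 and 2.28 in L, with the highest value in S1008 and overlap between every pair of letters. The summed microglial markers had the same order of letters as Kcnk13 and Kcnk6. Of these markers, 12 of the 12 lay higher in H than in L, against 13.2% of all genes. Their part in these differences was not tested. Kcnk13, Kcnk6, Kcnn4 and Kcnj2 overlapped no exon of another annotated gene.

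To set side by side genes that were high in H (Kcnk13, Kcnn4, Kcnj2 and Kcnj10) and low in H relative to M (Kcnf1 and Kcna6), their upstream sequences are shown, each as the 250 bases before the RefSeq gene start on GRCm38.p6 (mm10), 5′ to 3′ on the gene's strand. Capitals mark the GC box GGGCGG and the PU.1-type purine box GAGGAA, a core bound by a myeloid factor, on either strand. The RefSeq table used here matched 69 of the 94 genes by symbol, Kcnk6 not among them.
Kcnk13: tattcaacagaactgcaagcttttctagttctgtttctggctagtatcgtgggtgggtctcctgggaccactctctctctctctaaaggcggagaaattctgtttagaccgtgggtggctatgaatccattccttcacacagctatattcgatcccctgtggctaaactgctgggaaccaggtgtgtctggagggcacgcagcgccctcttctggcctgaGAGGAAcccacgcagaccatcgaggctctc
Kcnn4: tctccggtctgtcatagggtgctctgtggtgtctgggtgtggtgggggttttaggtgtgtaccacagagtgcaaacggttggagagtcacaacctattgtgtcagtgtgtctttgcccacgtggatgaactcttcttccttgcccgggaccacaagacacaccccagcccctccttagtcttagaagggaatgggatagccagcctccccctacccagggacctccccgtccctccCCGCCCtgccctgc
Kcnj2: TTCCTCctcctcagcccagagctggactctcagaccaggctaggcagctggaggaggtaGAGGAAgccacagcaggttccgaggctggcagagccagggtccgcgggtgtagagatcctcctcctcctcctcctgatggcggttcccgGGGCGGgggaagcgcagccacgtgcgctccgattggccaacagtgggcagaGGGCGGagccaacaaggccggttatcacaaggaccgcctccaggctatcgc
Kcnj10: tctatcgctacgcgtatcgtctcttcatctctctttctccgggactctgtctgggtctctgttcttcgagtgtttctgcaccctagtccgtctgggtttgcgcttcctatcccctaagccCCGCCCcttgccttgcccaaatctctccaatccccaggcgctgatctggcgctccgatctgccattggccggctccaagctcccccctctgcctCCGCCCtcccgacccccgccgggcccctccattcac
Kcnf1: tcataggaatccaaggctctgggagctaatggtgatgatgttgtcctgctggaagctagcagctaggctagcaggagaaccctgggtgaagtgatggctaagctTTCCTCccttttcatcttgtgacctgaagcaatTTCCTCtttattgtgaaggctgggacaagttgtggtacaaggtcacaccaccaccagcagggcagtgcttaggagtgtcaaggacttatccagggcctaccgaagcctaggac
Kcna6: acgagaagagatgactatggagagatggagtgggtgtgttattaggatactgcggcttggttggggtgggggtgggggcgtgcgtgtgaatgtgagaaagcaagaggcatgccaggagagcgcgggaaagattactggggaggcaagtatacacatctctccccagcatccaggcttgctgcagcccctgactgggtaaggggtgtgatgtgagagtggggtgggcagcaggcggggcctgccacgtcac

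These windows lie at chr12:99964249-99964498 for Kcnk13, chr7:24370013-24370262 for Kcnn4, chr11:111065914-111066163 for Kcnj2, chr1:172340960-172341209 for Kcnj10, chr12:17176889-17177138 for Kcnf1 and chr6:126740675-126740924 for Kcna6. The purine box occurred once for Kcnk13, 2 times each for Kcnj2 and Kcnf1, and not in the Kcnn4, Kcnj10 and Kcna6 windows, so it stood in windows of genes high in H and of 1 gene low in H. These 69 genes have 94 windows, since some have several starts, and 24.5% of the windows held it, against 23.3% of 32851 windows of all genes. The GC box was in 44.7% of family windows against 32.7% of all, and the median GC content was 58.6% against 52.4%. The TATA box TATAAA was in 3.19% against 12.4%, the E-box CACGTG in 6.38% against 6.02%, and the AP-1 site TGANTCA in 4.26% against 6.75%, both strands in each case. Each motif was counted on its own, whether or not a match overlapped that of another motif, and a match describes the letters only.

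Among channels of other glia, Kcnj10 (chr1:172341210-172374085, plus strand) encodes Kir4.1, which clears potassium in astrocytes and oligodendrocytes. It measured 4.34, 4.99 and 3.96 CPM in H, 1.68, 1.65 and 1.45 in M, and 0.202, 0.122 and 0.123 in L, the last on 3, 2 and 2 counts. The 3 letters were fully apart, by 2.25 between H and L and 1.24 between M and L on the log2(CPM + 1) scale. Its usual partner Kcnj16, encoding Kir5.1, stayed under the minimum with a mean of 0.954 CPM. It measured 1.56, 1.54 and 1.83 CPM in H, 0.368, 1.86 and 0.945 in M, and 0, 0.487 and 0 in L, so H lay above L and overlapped M. Oligodendrocyte marker sums had the same order of letters as Kcnj10, with 7 of 7 higher in H than in L, against 13.2% of all genes. The 6 astrocyte markers, none at 0, summed to 187 to 197 CPM in H, 154 to 259 in M and 80.6 to 147.5 in L. Of these 6, 2 lay higher in H than in L, against the same 13.2%. The part of either cell type was not tested. Kcnk10, the leak channel TREK-2, had no such order. It measured 3.77, 3.38 and 2.06 CPM in H, 5.00, 9.17 and 5.52 in M, and 4.78, 8.04 and 1.54 in L. The vascular channel genes Kcnj8 and Kcnmb1 had 5 and 4 counts in all 9 libraries together.

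The gene furthest in the other direction was Kcnip1 (chr11:33629339-33993152, minus strand), a Kv4 partner known in the hippocampus mainly from interneurons. It measured 9.51, 8.76 and 8.77 CPM in H, 46.4, 31.6 and 44.5 in M, and 43.3, 61.6 and 30.8 in L. All 3 H libraries lay below every other library, with the L median 4.94 times and the M median 5.07 times the H median. It was lower in H than in both other letters under every scaling and pseudocount tried. Kcnf1 (chr12:17172100-17176888, minus strand), a silent subunit that joins Kv2 channels, measured 12.9, 11.1 and 9.99 CPM in H, 36.1, 46.3 and 29.0 in M, and 32.8, 38.7 and 11.0 in L. S1009 lay within the H range, and the M median was 3.24 times the H median. Kcna6 (chr6:126708329-126740674, minus strand), the Kv1.6 channel, measured 9.67, 9.99 and 12.4 CPM in H, 25.4, 31.9 and 22.8 in M, and 22.3, 23.0 and 14.8 in L. H was the lowest letter for Kcna6, with S1009 the nearest of the others.

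Channels known from fast-spiking interneurons came next. Kcnc1 (chr7:46396497-46438704, plus strand), the Kv3.1 channel that allows rapid repolarisation, measured 21.5, 19.7 and 20.7 CPM in H, 37.7, 26.4 and 21.0 in M, and 51.5, 47.1 and 29.7 in L. H and L were apart with the L median 2.28 times the H median, and M overlapped H. Kcns3, a silent subunit of parvalbumin cells, measured 15.7, 12.3 and 13.4 CPM in H, 17.1, 7.31 and 16.0 in M, and 26.9, 26.7 and 27.2 in L, the highest 3 values. Kcnc2 ran from 33.3 CPM in S1004 to 54.0 in S1008 with no letter apart. The list of 4 fast-spiking channels, Kcnip1 among them, summed to 78.8 to 85.8 CPM in H, 107 to 135 in M and 127 to 189 in L. Of the 4, 2 lay lower in H than in L, against 2.00% of all genes. The 8 inhibitory neuron markers summed to 217 to 249 CPM in H, 649 to 1039 in M, and 1245, 1390.1 and 317 in S1007, S1008 and S1009. By letter, 4 of the 8 lay lower in H than in L (2.00% of all genes) and 0 higher (13.2%). Vip differed from the sum, at 35.9 to 41.8 CPM in H and 164, 0.305 and 0.555 CPM in S1007, S1008 and S1009. Pvalb, the marker of fast-spiking cells, was at 20.2 CPM in S1007 and at 0 to 1.67 CPM in all other libraries, with a median of 0.738. S1009 was the lowest L library in the sum of these markers, as it was for Kcnip1, Kcnf1, Kcna6 and Kcnc1, and their part in the channel values was not tested.

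**Figure D4:**
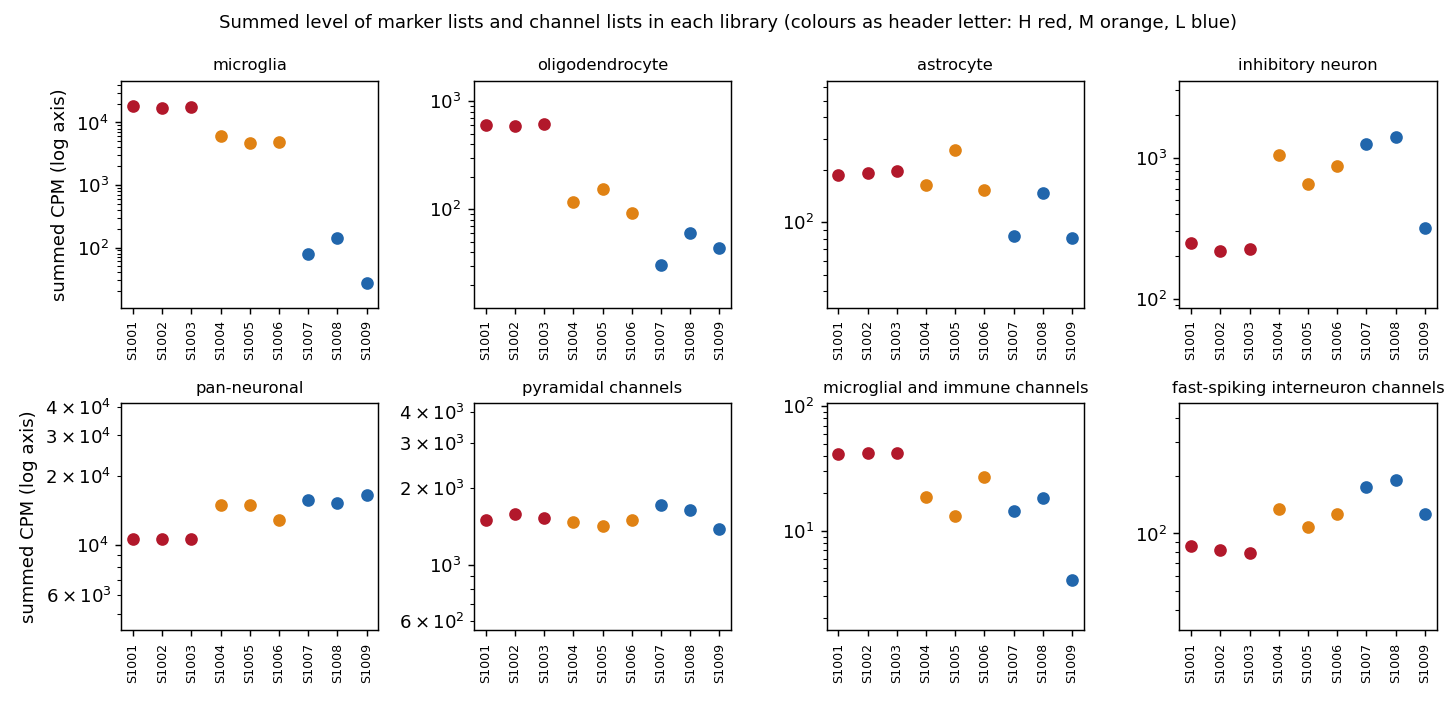
Summed CPM (log axis) of 5 marker lists and 3 channel lists in each library, coloured by header letter. Microglial markers span 27.4 to 18407 CPM, the pyramidal channel list only 1381 to 1722 CPM.

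Kcnk4, Kcnab3 and Kcnj14 were also lower in H than in L. Kcnk4 (chr19:6923966-6934515, minus strand), the mechanosensitive leak channel TRAAK, measured 3.44, 4.07 and 5.11 CPM in H, 10.1, 11.7 and 8.87 in M, and 10.2, 9.32 and 6.90 in L. Its exons overlap Catsperz, so reads of the 2 genes may be mixed. Kcnab3, a Kv beta subunit, measured 11.9, 9.83 and 10.5 CPM in H, 14.9, 10.00 and 11.5 in M, and 28.8, 25.6 and 12.7 in L, with S1007 and S1008 high, and its exons overlap the opposite-strand gene Kcnab3os. Kcnj14, the inward rectifier Kir2.4, measured 1.56, 1.84 and 1.98 CPM in H, 2.47, 2.00 and 1.67 in M, and 3.09, 8.10 and 4.81 in L. For Kcnab3 and Kcnj14 H and M overlapped. On the pan-neuronal scaling none of Kcnk4, Kcnab3, Kcnj14, Kcna6, Kcnc1 and Kcng2 was counted as lower in H than in L. Kcng2 was counted there as lower in M than in L and higher in H than in M.

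Another pattern put M lowest. Kcng2, a silent subunit, measured 17.4, 17.4 and 13.6 CPM in H, 11.1, 7.52 and 8.79 in M, and 19.5, 37.2 and 39.1 in L. No letters overlapped for Kcng2, and the L median was 4.22 times the M median. Kcnh3, the ELK channel Kv12.2 that restrains firing of pyramidal cells, measured 24.6, 20.8 and 23.9 CPM in H, 16.9, 19.2 and 13.6 in M, and 39.4, 41.9 and 44.7 in L. It too followed the order of the letters in the summed pyramidal markers, M below H below L, whose part was not tested. The exons of Kcng2 and Kcnh3 overlap D330025C20Rik and Mcrs1. Of the less abundant ELK and ERG genes, Kcnh4 measured 2.70, 2.00 and 1.75 CPM in H, 0.0526, 0.758 and 0.291 in M, and 0.807, 1.46 and 0.431 in L, with H highest. Kcnh6 measured 0.246, 0.691 and 0.610 CPM in H, 1.68, 2.55 and 0.945 in M, and 0.336, 2.56 and 4.62 in L, with the L libraries spread over the whole range. Kcnmb2, a BK beta subunit that inactivates the channel, ran from 0.276 CPM in S1005 to 4.63 in S1008.

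Some of these genes lie next to each other in the genome. Kcnj9, a subunit of the G protein-gated rectifier, lies 11.9 kb from Kcnj10 on chromosome 1, on the other strand. It measured 40.6, 42.8 and 40.2 CPM in H, 67.7, 67.2 and 39.1 in M, and 73.1, 93.7 and 70.2 in L, so that H lay below L, where for Kcnj10 H lay above L. Kcna3 and Kcna2 lie 63.1 kb apart on chromosome 3, and Kcna2 ran only from 37.7 CPM in S1009 to 73.5 in S1005, with the 3 M libraries highest. Kcna1 and Kcna6 lie 61.9 kb apart on chromosome 6. Kcna1 measured 26.7, 26.7 and 24.7 CPM in H, 29.6, 34.8 and 19.7 in M, and 46.1, 33.4 and 40.6 in L, so that H lay below L for both, and M overlapped H for Kcna1 alone. Kcnj16 and Kcnj2, 38.2 kb apart on chromosome 11, both had their H libraries above all or most others.

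The 28 genes under 1 CPM included 4 with no read in any library, namely Kcne1, Kcnj15, Kcnk7 and Kcnk16, and 24 with 2 to 118 counts over all 9 libraries. Of the single-span auxiliary family only Kcne3 passed the minimum, at 0.762 to 3.47 CPM. Kcnu1, the Slo3 channel known from sperm, had 1.54 to 5.45 CPM.

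Proteins that bind or regulate these channels were read from a list of 28 genes, of which 24 passed the minimum and 5 had a 2-fold spread, against 26.4% of all genes. By letter, 1 lay higher in H than in L (13.2% of all genes) and 0 lower (2.00%). In M 1 lay higher than in L (9.35%) and 1 lower (2.31%), and in H 0 lay higher than in M (6.54%) and 2 lower (2.70%). The widest were Kctd12 (spread 1.83) and Kctd8 (1.37), auxiliary subunits of the GABA-B receptor that opens Kir3 channels, and Rgs7 (1.43), which speeds their closing. Kctd12 ran from 28.6 to 116.3 CPM with a median of 93.4, and Rgs7 from 54.8 to 183 with a median of 121.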

How the data were processed

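RNA of 9 libraries was sequenced. Tools listed in the submitters' processing notes were HTSeq 0.6.1, HISAT2 2.0.1, Trimmomatic 0.30 and bcl2fastq 2.17.1.14, with mm10 as build. Their roles, the strand setting and the handling of multiply matching reads are not given in the sources, so of the 66 genes described the 25 whose exons overlap another gene are uncertain. For each Ensembl gene and library the authors' tables hold, per the file headers, an unnormalised count and an FPKM. Here CPM was computed from the counts using edgeR 4.0.16 (R 4.3.3) TMM factors, with a pseudocount of 1 CPM and a minimum mean of 1 CPM. FPKM was used as deposited. Gene symbols were looked up by Ensembl identifier and found for 51633 of the 51912 genes. Coordinates and exon overlaps came from GENCODE M21.

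No library has a group in the labels, 0 of 9, so nothing was tested and values are given per library or as ranges and medians. The series states 3 groups of 3 biological replicates. Counts of genes with a 2-fold spread or a difference between letters in the main analysis are set beside the same count over all 14787 genes. That count was not repeated for all genes under other settings. The genes and lists were chosen with earlier results of these data known. Named were the highest member by FPKM of each subfamily, the 15 of largest spread, all members of the channel lists, those without reads, and 3 partners. Some genes that the rule names are not reported here by name or plotted, and they stay in the counts and sums. Genes outside this rule that stand beside a count, a neighbour or a single deviating library (Kcnip2, Kcnh4, Kcnj14 and Kcnk4, for example) were named after their values were seen. Alternatives were library totals, DESeq2 1.42.0 size factors, pan-neuronal scaling, pseudocounts of 0.5 and 5 CPM, no minimum or 10 CPM, the full range, and leaving out libraries. The scripts (Python 3.11.15) were tested on simulated data.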

Additional observations from a re-analysis of the deposited data

Results flagged for a closer look

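In 3 of the 66 genes examined, 1 library stood apart from the other 8 by Dixon's criterion. Chance flags about 1 in 20 sets of values, a rate that 3 of 66 did not exceed. The share over all genes was not counted, so the values below are only described. Kcnip4 was lowest in S1005, at 34.1 CPM, where the others measured 56.2 to 89.7. Kcnb2, a Kv2 delayed rectifier, was also lowest in S1005, at 13.9 CPM, where the others measured 22.5 to 31.8. Kcnt2, a sodium-activated channel, was highest in S1006, at 32.7 CPM, where the others measured 20.3 to 25.6.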

How the results depend on the processing

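Of 3243 recomputed values of named genes, 0 changed sign where called, 2925 moved by less than the spread within a letter and 318 by more. Of 120 recomputed counts, 96 stayed within 1.5 times. The others follow, with the cause not tested except where fewer genes or libraries entered. On pan-neuronal scaling, genes higher in H than in L numbered 8 (5 in the main analysis), lower in H than in L 1 (7), higher in H than in M 9 (5) and lower in H than in M 2 (4). With a pseudocount of 5 CPM, the 2-fold spread held for 9 genes (23), H was above L in 2, below L in 2, and above M in 0, and M was above L in 1 (3). With a minimum of 10 CPM the spread held for 10 genes, H was above L in 0 and above M in 0, and M was above L in 0. The full range gave 47 genes. Without S1002 and S1003, left out after seeing the data, the spread held for 14 and H was above M in 3. Leaving out 1 library at a time gave 19 to 22 genes for the spread, 4 to 6 for H above L, 3 to 11 for H below L, 3 to 4 for M above L, 2 to 7 for M below L, 3 to 7 for H above M and 3 to 5 for H below M. H above M was in 7 genes without S1004. Averaging libraries within sampling noise was not run, since no pair was. No paired analysis was possible because no library has a group in the labels. Depth limits genes under 0.246 CPM, where 3 reads cannot be told from none.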
